A study of Bos grunniens and Bos grunniens x Bos taurus with 2 samples.

Results

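Cells that carried RNA of the contractile machinery of smooth muscle, and no RNA of the mesenchymal receptor *PDGFRA*, made up 1066 of 20921 cells of the testis in 2 single-cell libraries. A cell was a member when its raw unique molecular identifiers (UMIs, each standing for 1 captured RNA molecule) of *DES*, *CNN1*, *LMOD1* and *MYOCD* summed to at least 6. It also had to have no UMI of *PDGFRA* and of *CYP11A1*, at most 2 UMIs of the pericyte genes *KCNJ8*, *ABCC9* and *HIGD1B* together, and under 30% of its UMIs from mitochondrial features. These 9 genes chose the members, so their levels below are a description and support nothing.

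One library came from the testis of a yak (*Bos grunniens*), and the other from the testis of a cattle-yak, the hybrid of yak and cattle (*Bos grunniens* and *Bos taurus*). Per the labels both tissues were taken after sexual maturity, frozen, thawed, digested with collagenase, hyaluronidase and trypsin, and loaded on a droplet platform that reads RNA from one end. No agent or engineered allele was used in either group, and each group had 1 library. The study's methods describe the yak alone, and how many animals the cattle-yak library holds is not given in the sources used here. There was therefore no replicate of a condition: no p-value is given, intervals are 95% and cover counting error only, and animal, hybrid status, dissociation and library cannot be told apart.

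The yak library held 11991 cells, with a median of 2533 UMIs, and the cattle-yak library held 8930, with a median of 3155. The mitochondrial limit kept 11114 yak cells (92.7%) and 7620 cattle-yak cells (85.3%). Between the libraries 24 cell barcodes were shared, of which 2 yak members and 1 cattle-yak member carried one. The labels name germ cells as the cell type, whereas the members were chosen by muscle genes, which says nothing about the rest of each library. At least 2 UMIs of germ cell genes were found in 30 yak and 14 cattle-yak members.

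Smooth muscle in a testis lies in the walls of arteries and veins and in the wall of the seminiferous tubule, where peritubular myoid cells contract to move sperm and fluid. Vascular smooth muscle tightens when calcium activates myosin through its kinase *MYLK*, and relaxes when nitric oxide raises cyclic GMP through guanylate cyclase and the kinase *PRKG1*. Pericytes wrap capillaries and share many genes with vascular smooth muscle, while myoid cells are known for hedgehog signalling.

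The rule found 576 yak members, 5.18% of kept cells (exact binomial interval 4.78 to 5.61), and 490 cattle-yak members, 6.43% (5.89 to 7.0). Members were deep cells, as a rule on raw UMIs picks deeper ones: yak members had a median of 6214.5 UMIs (range 1161 to 98758) against 2514 in the other kept cells. Cattle-yak members had a median of 5379.5 UMIs (1166 to 58940) against 3014.5. Mean mitochondrial shares were 18.4% and 18.6% in members, and 14% and 19.4% in the other kept cells.

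Most members lay well above the threshold. The 4 summed genes gave a median of 17 UMIs per yak member (6 to 96) and 13 per cattle-yak member (6 to 65). *DES*, the intermediate filament of muscle, had a UMI in 99.8% of yak and 98.0% of cattle-yak members, and *LMOD1*, which nucleates actin filaments, in 92.4% and 93.5%. *CNN1*, which binds actin, had one in 75.3% and 86.7%. *MYOCD*, the transcription factor that turns on smooth muscle genes, had one in only 25.3% and 22.2%. At exactly 6 summed UMIs there were 27 yak and 54 cattle-yak cells, and at 5, just outside, 28 and 67. Cells just outside had *RERGL* at 315 and 156 CPM (the counts of a gene per 1000000 summed UMIs of the cells) and cells just inside at 198 and 114 CPM, so the limit did not separate cells by this gene.

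Of the 4 marker genes given for these cells, *MYH11*, the smooth muscle myosin heavy chain, was not part of the rule and had a UMI in 99.8% of yak and 99.6% of cattle-yak members, with medians of 48 and 38 UMIs per cell. The members were compared with other cells of the same library, set apart by UMIs. The *PDGFRA* and *ACTA2* cells (457 yak and 207 cattle-yak cells) had at least 2 UMIs of *PDGFRA* and at least 5 of the actin gene *ACTA2*. The pericyte gate (749 and 539 cells) had at least 3 UMIs of the pericyte genes and none of *PDGFRA* and *CYP11A1*. Cells of that gate were deep, with medians of 12356 and 10965 UMIs, and carried endothelial genes at a summed 2169 and 1926 CPM. The 246 yak and 165 cattle-yak gate cells with at most 1 UMI of *PECAM1*, *VWF*, *CDH5* and *TIE1*, a choice made after seeing this, had 132 and 232 CPM, and are called endothelial-poor pericytes here.

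RNA of other cell types was present in part of the members. In the yak, 76 members (13.2%) had at least 2 UMIs of endothelial genes, 88 (15.3%) of lymphocyte genes, 30 (5.21%) of germ cell genes and 1 of macrophage genes. In the cattle-yak, 35 (7.14%), 19 (3.88%), 14 (2.86%) and 6 did. Together these were 149 yak members (25.9%) and 58 cattle-yak members (11.8%). No doublet caller was run, and the levels of the vascular genes and the main counts of genes are also given for the 427 yak and 432 cattle-yak members without them, called marker-free members. Stromal genes were not used for this choice, since 71.7% of yak and 90% of cattle-yak members had at least 2 UMIs of them. Marker-free members had medians of 5928 and 5284 UMIs, and their deepest cells had 17219 and 16913.

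The question put to these cells was whether they are vascular smooth muscle. *RERGL*, *LDB3* and *KCNAB1*, the genes named for it, were each far higher in members than in all other kept cells and in *PDGFRA* and *ACTA2* cells, in both libraries. *LDB3* and *KCNAB1* were also far higher than in endothelial-poor pericytes. Where the cells lay in the tissue was not measured.

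*RERGL*, which codes for a Ras-like protein and marks vascular smooth muscle in many atlases, stood at 133.9 CPM in yak members (exact Poisson interval 123.5 to 145) and 178.5 CPM (164 to 193.9) in cattle-yak members. All other kept cells together had 10.3 and 17.9 CPM. The level was thus far higher in members of both libraries, with log2 ratios of CPM + 1 of 3.58 and 3.25. *PDGFRA* and *ACTA2* cells had 8.51 and 19.8 CPM of *RERGL*, and stromal cells (*PDGFRA* without that much *ACTA2*) 0.373 and 1.38 CPM. Endothelial-poor pericytes had 113 CPM in the yak, near the members (log2 ratio 0.24), and 84.1 CPM in the cattle-yak (1.08). *RERGL* therefore set the members apart from *PDGFRA* and *ACTA2* cells but, in the yak, hardly from endothelial-poor pericytes.

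*LDB3*, a PDZ and LIM protein that anchors actin, stood at 94.0 CPM (85.3 to 103) in yak members and 102 CPM (91.5 to 114) in cattle-yak members. It was low in every other gate named here, at 4.07 and 14 CPM in *PDGFRA* and *ACTA2* cells and 6.21 and 14.3 CPM in endothelial-poor pericytes. The log2 ratios to those pericytes were 3.72 and 2.75. *KCNAB1*, a subunit of voltage-gated potassium channels, had 76.0 CPM (68.2 to 84.4) and 76.5 CPM (67.1 to 86.8) in members. Endothelial-poor pericytes had 6.91 and 7.64 CPM of it, giving log2 ratios of 3.28 and 3.16, and *PDGFRA* and *ACTA2* cells had 11.1 and 17.3 CPM. For both genes the intervals of members and of these gates lay far apart.

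**Figure D1:**
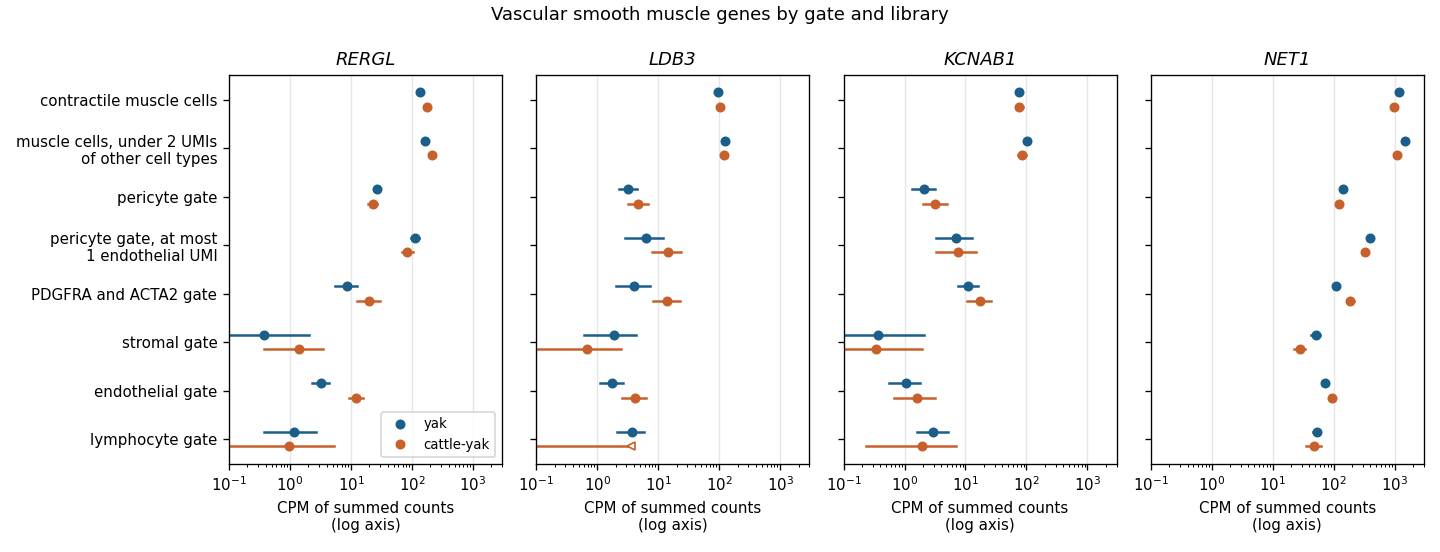
Levels of *RERGL*, *LDB3*, *KCNAB1* and *NET1* (CPM of summed counts, log axis) in members and 6 other sets of cells, in yak (blue) and cattle-yak (orange); points are levels, lines exact 95% Poisson intervals (drawn from 0.1 CPM), and an open triangle marks the upper bound where no count was seen. *LDB3* and *KCNAB1* lie between 76.0 and 123 CPM in members and under 20 CPM in the other gates, whereas *RERGL* is also high in pericytes with few endothelial UMIs.

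Counting cells at one depth gave the same order. After each cell was thinned to 1000 UMIs, which left out no member, 26.9% of yak members (23.3 to 30.7) and 27.8% of cattle-yak members (23.8 to 31.9) had a UMI of at least 1 of *RERGL*, *LDB3* and *KCNAB1*. Without thinning these were 77.8% (448 cells) and 80.0% (392 cells). Lymphocytes, which should lack the genes, gave 0.404% (6 of 1486 cells) and 0 of 350 cells, which allows a share of up to 0.857%, and 1.67% and 0.284% without thinning at median depths of 2225 and 2607 UMIs. *PDGFRA* and *ACTA2* cells gave 1.31% and 2.42% after thinning, and endothelial-poor pericytes 10.2% and 11%. In those pericytes most of it was *RERGL* (9.39% and 7.93%), while *LDB3* was found in 0 of 245 yak cells and 1.83% of cattle-yak cells.

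*NET1*, which activates the small GTPase RhoA, was the broadest of the vascular list in members: 69.3% and 62.0% of thinned members had a UMI of it, against 3.84% and 4.57% of lymphocytes. Its level was 1173 CPM (1142 to 1205) and 980 CPM (945 to 1015) in members, 388 and 324 CPM in endothelial-poor pericytes, and 110 and 188 CPM in *PDGFRA* and *ACTA2* cells. *RCAN2*, an inhibitor of calcineurin, had 198 and 307 CPM in members and 144 and 250 CPM in endothelial-poor pericytes, so it differed little between them (log2 ratios 0.45 and 0.30). *ITGA7*, the laminin receptor of muscle, behaved alike, at 52.4 and 69.7 CPM in members and 53.9 and 55.4 CPM in those pericytes. *NTRK3*, a neurotrophin receptor, had 36.1 and 31 CPM in members against 15.2 and 8.60 CPM, and *SUSD5* 24.4 and 25 CPM against 7.6 and 4.78 CPM.

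The fixed list of vascular smooth muscle genes held 18 genes, of which 13 had a symbol in the annotation and 12 had at least 50 summed counts. Against all other kept cells, 10 of 12 were at least 2-fold higher in both libraries, with medians of 2.85 and 2.80 where the median of all genes was -0.43 and -0.41. Over all genes, 3.97% in the yak and 4.69% in the cattle-yak were that much higher. Among the 10 were *RERGL*, *LDB3*, *KCNAB1*, *NET1*, *SUSD5*, *NTRK3*, *RCAN2*, *ITGA7* and *MRVI1*. The other 2 were near the other cells: *BCAM*, an adhesion molecule, had log2 ratios of -0.05 and 0.25, and *PLCL1* 0.01 and 0.24. *CASQ2*, the calcium store protein, was at 0.661 and 0.960 CPM. *PLN*, *MUSTN1*, *ITGA8* and *KCNA5*, also on the list, had no symbol in the annotation and were not analysed here.

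Against *PDGFRA* and *ACTA2* cells, 8 of 12 list genes in the yak and 9 of 12 in the cattle-yak were at least 2-fold higher (medians 1.94 and 1.98, all genes 0.02 and -0.10). That much higher were 14.1% of all genes in the yak and 7.44% in the cattle-yak. In marker-free members the same 8 and 9 genes were that much higher, with medians of 2.37 and 2.16, where 6.5% and 7.54% of all genes were. Against endothelial-poor pericytes 6 of 12 and 7 of 12 were (medians 0.83 and 1.34, all genes 0.18 and -0.17), where 14.5% and 6.61% of all genes were. *PLCL1* was lower in yak members than in those pericytes by at least 2-fold.

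Several of the most abundant contractile genes outside the rule were also high in *PDGFRA* and *ACTA2* cells. *MYH11* had 6973 CPM (6896 to 7050) in yak members and 7071 CPM (6978 to 7165) in cattle-yak members, and 5230 and 3922 CPM in *PDGFRA* and *ACTA2* cells, so the log2 ratios were only 0.41 and 0.85. Endothelial-poor pericytes had 2128 and 1455 CPM of *MYH11* (1.71 and 2.28). *ACTA2*, whose UMIs chose the *PDGFRA* and *ACTA2* cells, had 4048 and 5886 CPM in members and 2596 and 2571 CPM in them. *TAGLN*, an actin-binding protein, had 10513 and 13429 CPM in members against 5129 and 4408 CPM. *MYLK*, the myosin kinase, was near even at 1164 and 1134 CPM against 985 and 875 CPM.

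Over the contractile list, 14 of 16 genes tested in the yak and 16 of 16 in the cattle-yak were at least 2-fold higher than in all other cells (medians 2.54 and 2.76; all genes 3.97% and 4.69%). Against *PDGFRA* and *ACTA2* cells 3 of 16 in the yak were, namely *TAGLN*, *SMTN* and *DSTN*, with *CNN2* lower, and 8 of 15 in the cattle-yak (medians 0.54 and 1.08). The yak share was near the 14.1% of all its genes that passed, and the cattle-yak share above its 7.44%. In marker-free members 7 of 16 and 12 of 15 passed (medians 0.86 and 1.25), against 6.5% and 7.54% of all genes. Against endothelial-poor pericytes the numbers were 4 of 15 in the yak and 14 of 15 in the cattle-yak (medians 0.70 and 1.73; all genes 14.5% and 6.61%), and 10 of 15 and 14 of 15 in marker-free members, where 6.65% and 6.62% of all genes passed. *SMTN*, smoothelin of the contractile cytoskeleton, had 920 and 1172 CPM in members and 409 and 522 CPM in *PDGFRA* and *ACTA2* cells, a log2 ratio of 1.17 in both libraries.

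Some genes of dense bodies and attachment plaques, where actin filaments are anchored, were well above *PDGFRA* and *ACTA2* cells. *SYNM*, an intermediate filament protein that pairs with desmin, had 627 and 548 CPM in members, 146 and 181 CPM in *PDGFRA* and *ACTA2* cells and 133 and 95.5 CPM in endothelial-poor pericytes. *PGM5*, a protein of adherens junctions of muscle, had 697 and 792 CPM in members against 292 and 352 CPM in *PDGFRA* and *ACTA2* cells. Of 17 list genes in the yak and 16 in the cattle-yak, 6 and 7 were at least 2-fold higher than in those cells (medians 0.44 and 0.79; all genes 14.1% and 7.44%), and 7 of 17 and 8 of 15 in marker-free members (all genes 6.5% and 7.54%), with *FILIP1L*, *LDB3*, *LPP*, *PGM5* and *SYNM* so in all members of both libraries, as were 4.2% of all genes tested in both. The rule genes, given only as a description, stood in members at 1927 and 1375 CPM (*DES*), 228 and 414 (*CNN1*), 397 and 530 (*LMOD1*) and 39.6 and 43.2 (*MYOCD*). *PDGFRA* and *ACTA2* cells had 523 and 396, 151 and 158, 224 and 182, and 45.1 and 42.9 CPM of the same genes.

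Among channels, pumps and stores of calcium and potassium, *TRPC6*, a calcium-permeable channel, had 108 CPM (98.8 to 118) in yak members and 106 CPM (94.8 to 118) in cattle-yak members. *PDGFRA* and *ACTA2* cells had 9.62 and 20.6 CPM of *TRPC6*, and endothelial-poor pericytes 156 and 123 CPM, so pericytes were a little above members. *ATP2B4*, a calcium pump of the plasma membrane, had 148 and 141 CPM against 46.6 and 52.7 CPM in *PDGFRA* and *ACTA2* cells. *RYR2*, the calcium release channel of the internal store, had 173 and 165 CPM against 92.1 and 107 CPM. *KCNMB1*, the smooth muscle subunit of the large calcium-activated potassium channel, was near 70 CPM in both: 68.5 and 77.1 CPM in members and 76.6 and 68.4 CPM in *PDGFRA* and *ACTA2* cells, but 18 and 13.4 CPM in endothelial-poor pericytes. Over this list 8 of 12 and 7 of 11 genes were at least 2-fold higher than in all other cells (medians 1.51 and 1.54), where 3.97% and 4.69% of all genes were. Against *PDGFRA* and *ACTA2* cells 5 of 10 and 3 of 9 were (medians 1.01 and 0.62; all genes 14.1% and 7.44%), and 5 of 9 and 4 of 9 in marker-free members (all genes 6.5% and 7.54%).

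The receptors and the relaxation pathway separated the members from *PDGFRA* and *ACTA2* cells in both directions. *EDNRA*, the endothelin receptor of contraction, was low in members at 34.4 CPM (29.2 to 40.2) and 47.0 CPM (39.7 to 55.3), and high in *PDGFRA* and *ACTA2* cells at 279 and 237 CPM (log2 ratios -2.98 and -2.31). *PDE3A*, which breaks down cyclic AMP, had 95.1 and 76.1 CPM in members against 10.4 and 23.1 CPM. *RGS4*, which shortens signalling of G proteins, had 55.1 and 37.8 CPM against 11.1 and 12.4 CPM. *NPR1*, the receptor of atrial natriuretic peptide, had 26.9 and 20.8 CPM against 7.40 and 6.59 CPM, and *PRKG1* 128 and 155 CPM against 46.2 and 68.4 CPM. *PDE5A*, which breaks down cyclic GMP, went a little the other way, at 331 and 211 CPM against 401 and 254 CPM.

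*GUCY1B1*, a subunit of the nitric oxide receptor, lay between the gates: 179 and 125 CPM in members, 45.9 and 38.7 CPM in *PDGFRA* and *ACTA2* cells, and 514 and 260 CPM in endothelial-poor pericytes. Its partner *GUCY1A1* had 33.0 and 26.6 CPM in members and 84.9 and 76.4 CPM in those pericytes. Of the receptor list, 7 of 10 genes in the yak and 5 of 8 in the cattle-yak were at least 2-fold higher than in *PDGFRA* and *ACTA2* cells (medians 1.59 and 1.34; all genes 14.1% and 7.44%), and 2 and 1 lower (all genes 9.73% and 8.71%). In marker-free members 6 of 9 and 5 of 8 were higher (all genes 6.5% and 7.54%).

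Notch signalling is known to hold arterial smooth muscle in its mature state. The receptor *NOTCH3* had 30.8 and 38.1 CPM in members, 5.55 and 6.59 CPM in *PDGFRA* and *ACTA2* cells, and 62.1 and 36.3 CPM in endothelial-poor pericytes. The ligand *JAG1* had 243 and 248 CPM in members against 62.5 and 94.0 CPM in *PDGFRA* and *ACTA2* cells, and the target *HES1* 76.9 and 72.9 CPM against 28.5 and 18.1 CPM. The target *HEY2* had 9.03 and 15.4 CPM in members and 1.47 and 1.75 CPM in all other kept cells. *PRRX1*, a mesenchymal transcription factor, was low in members (8.81 and 10.6 CPM) and high in both *PDGFRA* and *ACTA2* cells (109 and 76.7 CPM) and endothelial-poor pericytes (121 and 37.3 CPM). Of this list 5 of 9 and 4 of 11 genes were at least 2-fold higher than in *PDGFRA* and *ACTA2* cells and 1 was lower (medians 1.40 and 0.72), where 14.1% and 7.44% of all genes were higher and 9.73% and 8.71% lower. In marker-free members 5 of 9 and 3 of 9 were higher (all genes 6.5% and 7.54%).

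Several genes of peritubular myoid cells were low in members, although *MYH11*, the most abundant of that list, was not. *PTCH1*, the hedgehog receptor and target, had 4.62 and 6.40 CPM in members against 110 and 195 CPM in *PDGFRA* and *ACTA2* cells. *DPEP1*, a dipeptidase, had 0.661 and 4.48 CPM against 273 and 535 CPM. The matrix protein *DCN* had 43.8 and 74.2 CPM against 531 and 684 CPM. Of the list, 8 of 12 genes in the yak and 7 of 11 in the cattle-yak were at least 2-fold lower than in *PDGFRA* and *ACTA2* cells (medians -3.13 and -1.41; all genes 9.73% and 8.71%), and the numbers were the same in marker-free members, where 17.4% and 12.9% of all genes were lower, with *CSF1*, *DCN*, *DPEP1* and *PTCH1* among those so in both, as were 5.77% of all genes tested in both.

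A few genes of that list went otherwise. *INHBA*, the activin subunit, had 172 and 209 CPM in members and 62.5 and 116 CPM in *PDGFRA* and *ACTA2* cells (log2 ratios 1.45 and 0.84). *WFDC1*, a secreted protein, had 249 and 262 CPM against 394 and 340 CPM. *GDNF*, the growth factor of spermatogonial stem cells, had 5.07 and 7.36 CPM in members and 1.47 and 1.65 CPM in all other cells. With *MYH11*, these 3 were the list genes at least 2-fold above all other cells in both libraries.

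**Figure D2:**
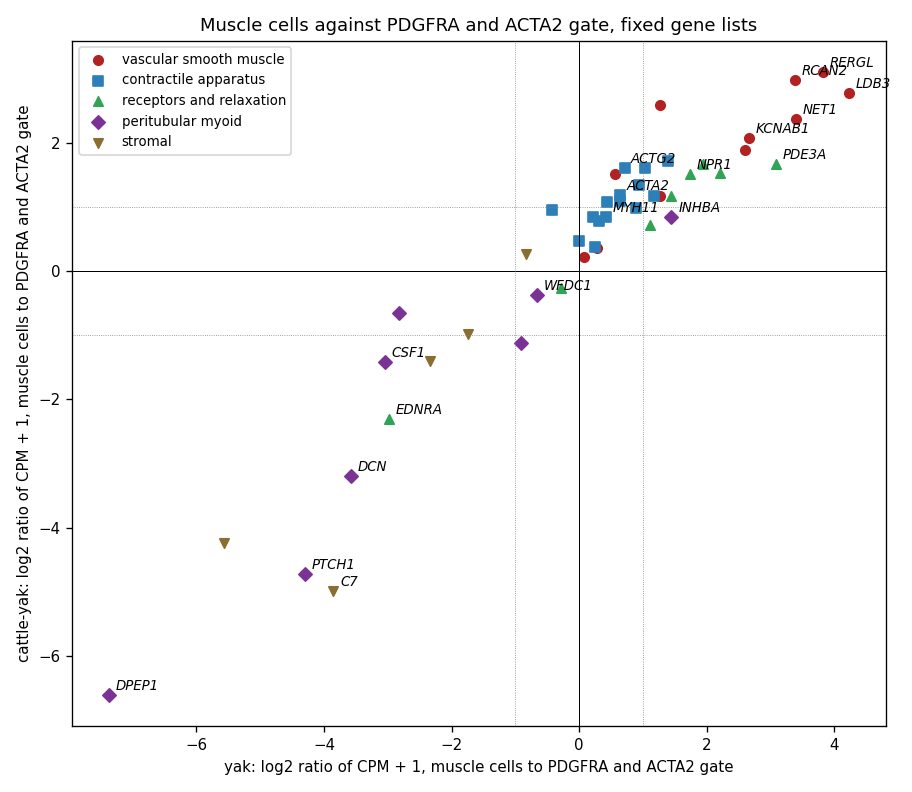
Log2 ratio of CPM + 1 of members to *PDGFRA* and *ACTA2* cells in yak (horizontal) and cattle-yak (vertical), for the plotted genes of 5 fixed lists with at least 50 summed counts in each library; dotted lines mark a log2 ratio of 1 and -1. Most vascular genes lie at the upper right, led by *RERGL* (3.83 and 3.11) and *LDB3* (4.23 and 2.78), contractile genes between them, with *TAGLN* at 1.04 and 1.61, and most peritubular genes, though not *INHBA* (1.45 and 0.84), at the lower left down to *DPEP1* (-7.37 and -6.61).

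*RGS5* and *PDGFRB*, pericyte genes outside the rule, were present at lower levels than in endothelial-poor pericytes. *RGS5* had 368 and 255 CPM in members, 1686 and 1136 CPM in endothelial-poor pericytes and 177 and 82.4 CPM in *PDGFRA* and *ACTA2* cells. *PDGFRB*, the receptor that recruits mural cells, had 140 and 118 CPM in members and 942 and 669 CPM in endothelial-poor pericytes. *MCAM*, a cell adhesion molecule of vessel walls, was not lower, at 588 and 496 CPM in members against 558 and 288 CPM in those pericytes and 105 and 98.1 CPM in *PDGFRA* and *ACTA2* cells. Of the pericyte genes outside the rule, 2 of 5 in the yak (*RGS5* and *PDGFRB*) and 3 of 5 in the cattle-yak (these and *GJC1*) were at least 2-fold lower than in endothelial-poor pericytes, where 5.07% and 7.88% of all genes were. In marker-free members the numbers were the same, with 10.9% and 13.5% of all genes lower. *HIGD1B*, which the rule limits, had 20.3 and 16.0 CPM in members and 2025 and 1001 CPM in them.

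Matrix genes differed in both directions. *SPARCL1*, a matricellular protein of vessels, had 2898 and 3210 CPM in members against 534 and 1063 CPM in *PDGFRA* and *ACTA2* cells. *IGFBP5*, which binds insulin-like growth factors, had 250 and 322 CPM in members, 32.5 and 51.9 CPM in *PDGFRA* and *ACTA2* cells and 48.3 and 72.6 CPM in endothelial-poor pericytes. *LAMA5*, a laminin chain of vessel basement membrane, had 22.0 and 24.3 CPM against 4.07 and 6.59 CPM in *PDGFRA* and *ACTA2* cells. *COL1A2*, of fibrillar collagen, had 90.3 and 340 CPM against 460 and 897 CPM. *COL4A1*, of basement membrane collagen, had 357 and 552 CPM in members and 1075 and 789 CPM in endothelial-poor pericytes. Of the matrix list, 4 of 32 and 6 of 31 genes were at least 2-fold higher and 12 and 8 lower than in *PDGFRA* and *ACTA2* cells. Over all genes 14.1% and 7.44% were higher and 9.73% and 8.71% lower, so the yak's share of higher genes over all members was no more than the background. In marker-free members 5 of 31 and 6 of 31 were higher (all genes 6.5% and 7.54%) and 10 and 8 lower (17.4% and 12.9%).

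Of stress genes, *CRYAB*, a small heat shock protein abundant in muscle, had 292 and 366 CPM in members against 25.5 and 52.8 CPM in *PDGFRA* and *ACTA2* cells and 31.8 and 44.9 CPM in endothelial-poor pericytes. *CKB*, the brain-type creatine kinase that buffers ATP, had 490 and 433 CPM against 126 and 106 CPM and 54.6 and 40.1 CPM. Both were thus several-fold above each of these gates in both libraries. Against all other cells, *ATF3*, *CRYAB*, *EGR1* and *HSPB6* of 16 stress genes were at least 2-fold higher in both libraries, and 4 of 7 energy genes were in each (all genes 3.97% and 4.69%). Of growth factor genes *FGFR1* had 128 and 169 CPM against 24.0 and 48.6 CPM in *PDGFRA* and *ACTA2* cells, while *IGF1* had 4.18 and 9.60 CPM against 270 and 181 CPM. Cell cycle genes were low: 4 of 7 in the yak and 6 of 7 in the cattle-yak were at least 2-fold below all other cells, where 19.7% and 21.8% of all genes were. In marker-free members 7 of 7 were in each library, where 43% and 31.7% of all genes were lower and 5.35% and 4.97% higher.

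Beyond the fixed lists, 423 of 12220 genes (3.46%) were at least 2-fold higher in members than in all other cells in both libraries, and 12% lower. In marker-free members 475 of 12172 genes (3.9%) were higher and 24.8% lower. The largest ratio in the yak belonged to *NDRG4*, a gene of heart and nerve, at 463 against 14.2 CPM (log2 4.94) and, in the cattle-yak, 749 against 32.2 CPM (4.49). *PDZRN4* followed in the yak at 133 against 3.84 CPM (4.8, cattle-yak 3.16), with *AK5*, *SLC22A3*, *SLIT2*, *SLC6A17* and *AKAP6* between 3.69 and 3.85. In the cattle-yak the largest was *FHL5*, a LIM protein, at 76.8 against 2.09 CPM (4.65), whereas in the yak its ratio was 1.74. *PRUNE2* had 3.85 in the cattle-yak and 3.01 in the yak. *CNN1* and *DES*, rule genes, with *ACTG2*, *TAGLN* and *MYH11*, also stood among the top in the cattle-yak.

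Against *PDGFRA* and *ACTA2* cells the highest symbols in the yak were *NTN4*, *LDB3*, *CLDN1*, *DIPK1C* and *FHL5* (3.83 to 4.31). In the cattle-yak they were *COL12A1*, *RERGL*, *RCAN2*, *SLIT2* and *ID4*. *ID4*, an inhibitor of helix-loop-helix factors, had 305 against 38.7 CPM in the cattle-yak, a log2 ratio of 2.95, and 3.11 in the yak. Among the lowest was the keratin *KRT18* of simple epithelium, at 2.42 against 1152 CPM in the yak (-8.40) and 30.4 against 1359 CPM in the cattle-yak (-5.44). *CA3*, a carbonic anhydrase, had 7.71 against 2520 CPM (-8.18) and 2.56 against 602 CPM (-7.40). Against the whole pericyte gate, 14.2% and 6.12% of genes were at least 2-fold higher in members and 11.3% and 13.8% lower. *CPE* (5.34 and 6.07) and *NDRG4* (5.74 and 5.40) were among the highest, with *FHL5* in the cattle-yak (5.74), and *STMN2* (-6.32 and -5.70), *FAM162B* (-4.74 and -5.45) and *ESM1* (-5.28 and -5.14), an endothelial gene, among the lowest. Levels were also set beside *RERGL* across 14 values (7 sets of cells in 2 libraries, which share library and depth within each). Only genes with at least 100 counts in members were ranked, and *RERGL* is high in members, so the ranking favours genes of members and is a description. Closest to *RERGL* in log2 level were *TRPC6* (Pearson r 0.968), *RCAN2* (0.967), *CRYAB* (0.957), *ITGA7* (0.947) and *NET1* (0.937).

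Markers of other cell types were summed over each list. Endothelial genes had 468 CPM in yak members and 344 CPM in cattle-yak members, led by *PECAM1* at 224 and 132 CPM, with all 10 annotated genes above 0. In marker-free members they had 27.4 and 29.8 CPM, against 2544 and 3057 CPM in the endothelial gate. Lymphocyte genes had 334 and 57.3 CPM, led by *CCL5* at 174 and 21.1 CPM, with *GZMA* at 0, and 23.9 and 9.25 CPM in marker-free members. Germ cell genes had 284 and 123 CPM (24.7 and 17.2 CPM in marker-free members), with *ZPBP* highest in the yak at 87.6 CPM and *UCHL1* in the cattle-yak at 80.0 CPM. Macrophage genes, led by *C1QA*, had 17.8 and 48.3 CPM. Leydig cell genes had 5.06 and 20.2 CPM, nearly all *DLK1*, with *STAR* at 0 in the yak. Of the nerve sheath list *NCAM1* gave most of 70.9 and 74.9 CPM, and *SOX10* and *CDH19* were at 0.

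Stromal genes remained at 441 and 999 CPM in members, led by *MFAP4* at 215 and 383 CPM, and at 585 and 1123 CPM in marker-free members, against 6839 and 6683 CPM in the stromal gate. *LUM* had no count in yak members, which allows up to 0.661 CPM. The vascular genes were as high without the cells that carried other markers: marker-free members had 165 and 210 CPM of *RERGL*, 123 and 120 CPM of *LDB3*, and 101 and 85.3 CPM of *KCNAB1*.

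Members were not uniform. They were clustered within each library from their 1000 most variable genes, which gave 7 clusters in the yak and 5 in the cattle-yak (3 and 10 in the cattle-yak at a lower and a higher resolution). The genes that define a cluster are described without a test, since they made it, and the genes named here were chosen after their values were seen. Some clusters were led by genes of other cell types. Yak cluster 4 (56 cells, median 16259 UMIs, 1 of them marker-free) had *PECAM1* at 652 CPM with spermatid and cell cycle genes, cluster 5 (53 cells, 2 marker-free) had *CCL5* at 1594 CPM, and cluster 7 (14 cells, 0 marker-free) had *MMRN1* and *CCL21* of lymphatic endothelium. Cattle-yak cluster 4 (41 cells, 5 marker-free) had *PECAM1* at 761 CPM. Cattle-yak cluster 5 (11 cells) was led by *KRT18* at 518 CPM with stromal genes such as *FBLN1* and *DCN*, and 10 of its cells counted as marker-free.

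The remaining clusters differed in levels of *DES*, of early response genes and of *ACTG2*. Yak clusters 1 (179 cells, 31.1%) and 2 (131 cells) had *DES* at 3236 and 2761 CPM and *FOS*, an early response transcription factor, at 3885 and 6000 CPM. Yak cluster 6 (34 cells, mean mitochondrial share 22.7%) had as much *MYH11* but *FOS* at only 222 CPM. In the cattle-yak, cluster 1 (226 cells, 46.1%) had *IGFBP5* at 530 CPM, and cluster 3 (94 cells) had the enteric-type actin *ACTG2* at 3722 CPM.

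**Figure D3:**
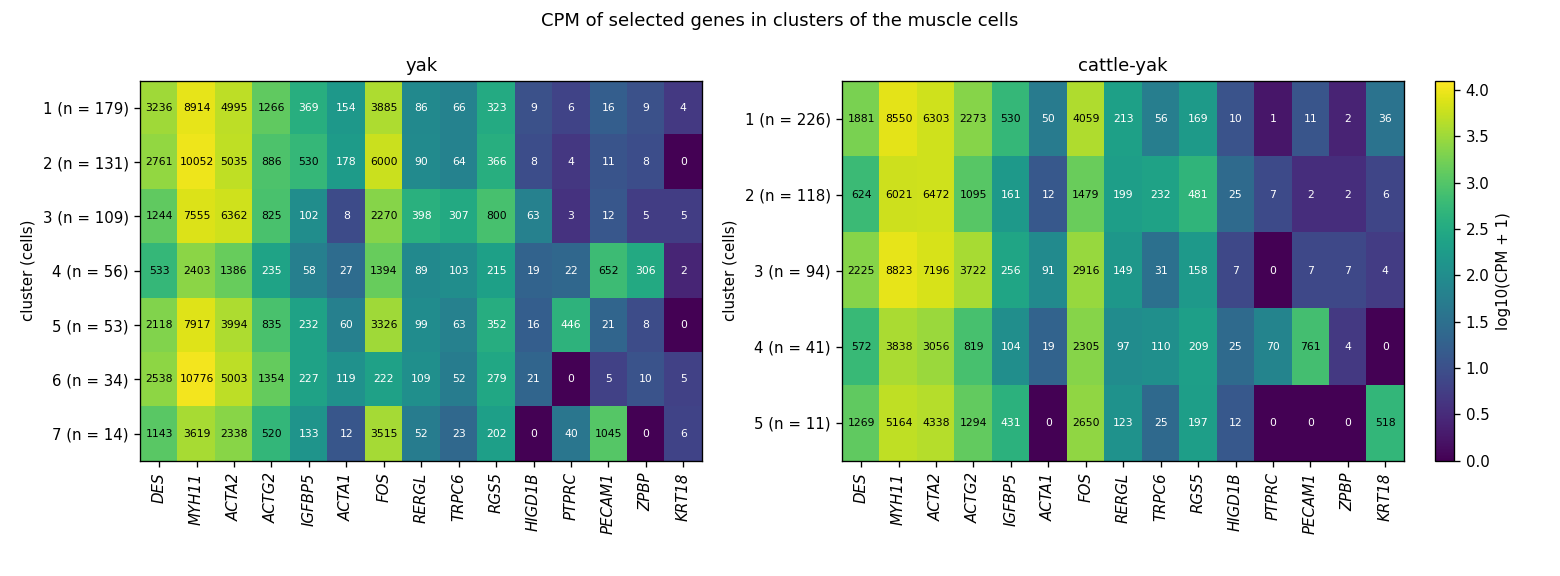
CPM of 15 genes chosen after the clusters were seen (colour, log10 of CPM + 1, with the CPM printed in each cell) in the clusters of yak members (left) and cattle-yak members (right). *MYH11* and *ACTA2* are high in every cluster. Among clusters not led by genes of other cell types, *DES* is lowest in yak cluster 3 and cattle-yak cluster 2, where *TRPC6* and *RGS5* are highest. *PECAM1* or *PTPRC* mark clusters with endothelial or lymphocyte genes, but both are at 0 CPM in cattle-yak cluster 5, which has stromal genes.

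One cluster in each library had less *DES* and more of the pericyte gene *RGS5* than the other members: yak cluster 3 (109 cells, 18.9%) and cattle-yak cluster 2 (118 cells, 24.1%). Cattle-yak cluster 2 also had the germ cell gene *UCHL1* at 254 CPM and *CCL21* at 93.4 CPM. In its marker-free cells *UCHL1* was at 14.9 CPM. Both clusters were set against the other clusters over marker-free cells alone, 100 against 324 in the yak and 111 against 306 in the cattle-yak. Median depths were similar, at 5818 against 5985 UMIs and 5746 against 5088.5 UMIs. *DES* was at 1274 against 2953 CPM in the yak and 714 against 1997 CPM in the cattle-yak. *MYH11* differed little, with log2 ratios of -0.27 and -0.31. Both clusters thus had the myosin at nearly the level of the other members and the filament protein at well below it.

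Of 3696 genes compared, 143 (3.87%) in the yak and 144 (3.9%) in the cattle-yak were at least 2-fold higher in this cluster, and 66 were so in both, 46.2% and 45.8% of each set. At least 2-fold lower were 96 (2.6%) and 124 (3.35%), with 44 in both, 45.8% and 35.5% of each set. The clusterings were made apart, but the clusters were paired by their *DES* level, so genes that vary with *DES* were bound to recur.

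*NOSTRIN*, which binds endothelial nitric oxide synthase, had 212 against 22.8 CPM in the yak and 122 against 7.51 CPM in the cattle-yak. *TRPC6* had 322 against 64.2 CPM and 267 against 51.9 CPM. The chemokine *CXCL12* (log2 ratios 3.87 and 2.46), the store protein *TRDN* (2.1 and 2.31), the calcium channel *CACNA1D* (1.95 and 2.61) and the pericyte gene *RGS5* (1.28 and 1.75) were also higher in both. *HIGD1B*, a rule gene, had 2.42 in the yak and was under the count minimum in the cattle-yak. Lower in both were *PRUNE2* (-3.84 and -5.39), the cadherin *FAT4* (-3.18 and -3.55), the fibronectin receptor *ITGA5* (-2.35 and -3.33), fibronectin *FN1* (-1.52 and -4.22), *IGFBP5* (-2.1 and -1.36), *CKB* (-1.82 and -1.39) and *FOS* (-1.02 and -1.15).

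*RERGL* followed this division in one library only, at 418 against 88.0 CPM in the yak (log2 2.24) and 236 against 206 CPM in the cattle-yak (0.19). *LDB3* (-0.51 and 0.42) and *KCNAB1* (-0.64 and 0.02) did not pass 2-fold in either. Of the pericyte list 3 of 6 and 2 of 5 genes were at least 2-fold higher (medians 0.95 and 0.40, all genes 0.02 and 0.08), against 3.87% and 3.9% of all genes, but these counts hold *RGS5*, by which the cluster is described, and in the yak the rule gene *HIGD1B*. *PDGFRB* was higher in the yak (1.64) but little so in the cattle-yak (0.40), and *MCAM* was near even (0.07 and -0.18). The rule genes *KCNJ8* (-1.41 and -0.73) and *ABCC9* (0.39 and -1.11) were each under 10 CPM on both sides.

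**Figure D4:**
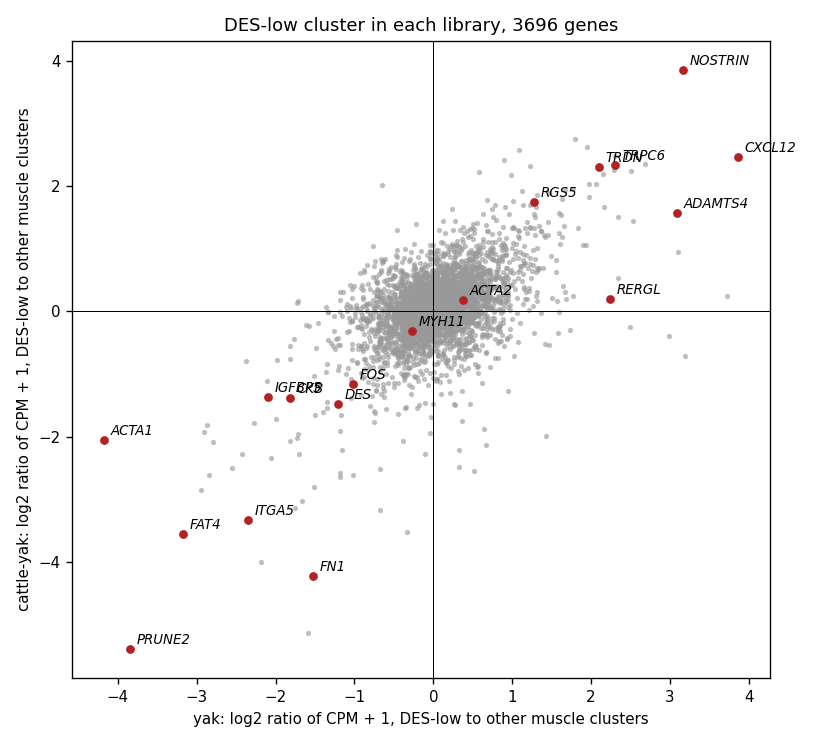
Log2 ratio of CPM + 1 of the *DES*-low cluster to the other muscle clusters, over marker-free cells, in yak (horizontal) and cattle-yak (vertical); each grey point is 1 of 3696 genes and red points are genes named after their values were seen. *NOSTRIN* and *TRPC6* are at the upper right, *PRUNE2* and *FAT4* at the lower left, *MYH11* near the origin, and *RERGL* is high on the yak axis only.

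Between the libraries, with 1 library on each side, differences are a description. The median log2 ratio of yak to cattle-yak over all genes was 0.18 in members and 0.12 in marker-free members, and values below are to be read against it. Of 6145 genes with at least 100 summed counts, 703 (11.4%) were at least 2-fold higher in yak members and 90 (1.46%) in cattle-yak members. The 10 largest yak ratios belonged to *ADAD1*, *LCA5L*, *CRISP2*, *SHCBP1L*, *CALR3*, *ANKAR*, *PDCL2*, *BTBD17*, *SMCO2* and *TSACC* (5.89 to 7.31), among them genes of spermatids and sperm such as *CRISP2* and *CALR3*. *ADAD1* had 209 against 0.320 CPM. Such ratios set against few counts or none depend on the added 1 CPM and give no exact fold. Of the 703 genes, 552 (78.5%) were also at least 2-fold higher in the other kept yak cells, and among marker-free members only 77 of 4168 (1.85%) were higher in the yak and 69 (1.66%) in the cattle-yak. Fewer genes reached 100 summed counts there, and some of the leading genes were no longer tested although they stayed far apart, such as *LCA5L* (22.7 against 0.841 CPM) and *TSACC* (27.4 against 1.26 CPM).

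In marker-free members, among genes with at least 100 summed counts the largest yak ratio was that of *KCNK5*, a potassium channel, at 87.5 against 16.8 CPM. The mitochondrial genes *ND4L* (2.01) and *ND4* (1.65), which overlap and may share reads, were also higher in the yak. All other kept cells shared part of this, with log2 ratios of 1.21 for *KCNK5* (2.31 in marker-free members), 1.08 for *ND4L* and 0.89 for *ND4*. Higher in the cattle-yak were *APOA1* at 153 against 9.25 CPM (217 against 62.1 CPM over all members), *ID1*, a target of BMP signalling, at 874 against 125 CPM (862 against 242 CPM), *SGK1* (-2.09, but -0.16 over all members) and *MYC* (-1.86). In all other kept cells the ratios were -0.68 for *APOA1*, -0.46 for *ID1*, 0.41 for *SGK1* and -0.79 for *MYC*. *NEB*, nebulin of striated muscle, was at 76.5 against 14.3 CPM over all members. Its log2 ratio was -0.03 in all other kept cells but -1.44 in *PDGFRA* and *ACTA2* cells. *SEMA4A* was higher in the cattle-yak in marker-free members (-2.77) and in other cells (-1.12). These marker-free genes were looked up after the difference to all members was seen. Reads of both animals were counted on yak gene models, and the part of sequence differences between cattle and yak was not tested.

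The fixed lists were not alike in how many genes differed. Over all members, 5 of 5 lymphocyte and 3 of 5 germ cell genes were at least 2-fold higher in the yak (all genes 11.4%). In marker-free members no gene of these 2 lists reached the count minimum. Of stromal genes, 3 of 5 were higher in the cattle-yak (all genes 1.46%), and 2 of 4 in marker-free members (1.66%). Of 12 vascular genes none passed 2-fold between the libraries, where 11.4% of all genes were higher in the yak and 1.46% in the cattle-yak, with a median of -0.07 (0.12 in marker-free members). Of 15 contractile genes 1 did: *ACTG2*, whose near-identical actin relatives may share its reads, had 793 CPM (768 to 820) in yak and 1913 CPM (1865 to 1962) in cattle-yak members, with log2 ratios of -1.27 in members, -1.13 in marker-free members and -0.46 in other cells. Of 30 matrix genes 6 were at least 2-fold higher in the cattle-yak (all genes 1.46%) and 5 in marker-free members (1.66%). *COL1A2* was among them (-1.90) and shared the difference with other cells (-1.61), while *ELN*, elastin of arterial walls, had -1.60 in marker-free members and -0.86 in other cells. *AEBP1* (-1.33 and 0.02) and *TGFB2* (-1.32 and -0.05) differed in marker-free members but hardly in other cells.

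**Figure D5:**
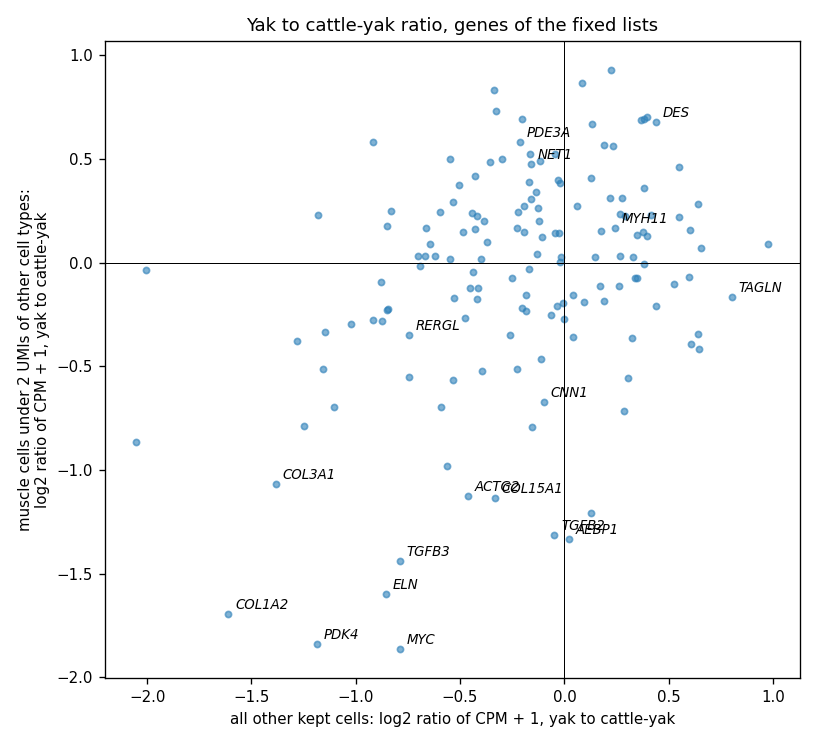
Log2 ratio of CPM + 1, yak to cattle-yak, of the plotted genes of the fixed lists with at least 100 summed counts, in all other kept cells (horizontal) and in marker-free members (vertical). Most points lie within 1 of 0 on the vertical axis, *COL1A2* and *PDK4* are lower in the yak on both axes, and *TGFB2* and *AEBP1* on the vertical axis alone.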

How the data were processed

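The authors deposited 1 filtered matrix of raw counts (UMIs per gene and cell) for each library, made with Cell Ranger. The submitters' processing notes name Cell Ranger 2.1.1, the file headers cellranger 5.0.0, and the study's methods a yak reference, BosGru3.0. Of 26961 features 15722 had a symbol, and features without the Ensembl yak prefix were taken as mitochondrial. Per library, gates were assigned in turn (members, pericyte, *PDGFRA* and *ACTA2*, stromal, endothelial, lymphocyte), so that none share a cell. The lymphocyte gate had at least 3 UMIs of *CD3D*, *CD3G* and *NKG7*, since *CD2* and *CD3E* had no symbol, and the endothelial gate at least 4 of *PECAM1*, *VWF*, *CDH5* and *TIE1*. Counts were summed per gate and given as CPM with exact Poisson intervals, and shares with exact Clopper-Pearson intervals. Ratios are log2 of CPM + 1, over genes with at least 50 summed counts (100 between libraries), and "at least 2-fold" means a log2 ratio of 1 or more. Depth was 60816600 UMIs in the yak and 43774841 in the cattle-yak. In members 3 counts came to 0.661 and 0.960 CPM.

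Any gene of the fixed lists could be named, and most are given only in counts. Beyond the lists named genes were, per library, the 10 with the largest ratio to other cells, 5 at each end against the pericyte and the *PDGFRA* and *ACTA2* gates (detected in at least 20% of cells on the higher side), and 10 at each end between libraries. The 5 most like *RERGL*, among genes with at least 100 counts in members, were also named. Members, lists and tests were chosen with earlier results of these data known. Clusters (Leiden, resolution 0.5, 20 components, 15 neighbours, seed 0) were made within each library.

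Simulated counts with 4-fold changes were drawn with Poisson error around the summed profile of the comparison cells. They held no spread between cells and no cells with RNA of other types, so the shares cover counting error alone. Yak members against other cells, over 14386 genes, gave 99% of the higher and 86% of the lower genes past 2-fold, with 16 of 14186 unchanged genes. For the cattle-yak, over 12488 genes, these were 98% and 87%, with 41 of 12291 unchanged genes. Other thresholds, mitochondrial limits, the study's limits on genes and UMIs, equal cell weights, pseudocounts, count minimums and cluster resolutions were run as alternatives. The endothelial-poor pericytes, the library genes of marker-free members and the cluster comparison over marker-free cells were added after seeing the data. Python 3.11.15 was used with numpy 2.4.6, scipy 1.17.1, pandas 2.3.3, scanpy 1.11.5, igraph 0.11.9, scikit-learn 1.9.0 and matplotlib 3.10.9. Results of some genes are not reported here.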

Additional observations from a re-analysis of the deposited data

Results flagged for a closer look

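For 2 genes the ratio of members to the pericyte gate pointed in opposite directions in the libraries, and the difference between libraries was not tested, as each side is 1 library. *WFDC2*, an epithelial secreted protein, had a log2 ratio of -2.47 in the yak and 1.90 in the cattle-yak, and stood at 1.54 and 48.3 CPM in members but 1.54 and 3.36 CPM in marker-free members. *BIRC5*, a gene of dividing cells, had 2.21 in the yak and -1.09 in the cattle-yak, and stood at 25.3 and 2.56 CPM in members but 0.39 and 1.68 CPM in marker-free members.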

How the results depend on the processing

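No paired analysis was possible because each group had 1 library. None of the main results turned its direction under the alternatives run. The share of members in kept yak cells, 5.18%, became 5.89% with at least 4 UMIs, 4.23% with 10, 6.37% with a rate of 1 per 1000 UMIs, 3.73% at a 20% mitochondrial limit (362 cells), 4.32% with pericyte genes at 0 and 3.84% in marker-free members. In the cattle-yak, 6.43% became 8.23%, 4.44%, 7.59% at 20% (323 cells), 5.69% with no mitochondrial limit, and 5.67% with pericyte genes at 0 and in marker-free members. The log2 ratio of summed *RERGL*, *LDB3* and *KCNAB1* to other cells was 4.06 in the yak. It became 4.26 and 3.73 with 4 and 10 UMIs, 4.22 at the 20% limit, 3.77 with no limit, 3.63 with pericyte genes at 0, 3.53 with a pseudocount of 10 and 4.42 in marker-free members. In the cattle-yak it was 3.54, and 3.81, 3.22, 3.67 (rate), 3.82 (equal cell weights), 3.21 (pseudocount) and 3.76 (marker-free). To the pericyte gate it was 3.22 in the yak, and 3.43 (20% limit), 2.64 (the study's limits), 2.72 (equal weights), 2.91 (pseudocount), 3.57 (marker-free) and 1.26 to endothelial-poor pericytes. In the cattle-yak 3.50 became 3.90, 3.10 (equal weights), 3.17 (pseudocount) and 1.74 (endothelial-poor). To *PDGFRA* and *ACTA2* cells 3.63 in the yak became 4.25 (equal weights) and 3.22 (pseudocount), and 2.78 in the cattle-yak became 3.38 (equal weights).

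Counts of genes moved most. The 703 genes higher in yak members became 163 with the rate, 129 with the study's limits, 186 with equal weights, 77 in marker-free members, 2474 with no minimum of counts, 171 with 4 times the minimum and 303 at a log2 ratio of 2. The 90 higher in cattle-yak members became 163 with at least 4 UMIs, 52 with the pseudocount, 458, 28 and 21 with the last 3 choices. The 570 genes higher and 2824 lower than other cells in the yak ran from 210 to 764 and 356 to 6146, and the 583 and 2704 in the cattle-yak from 206 to 703 and 528 to 3929. Against *PDGFRA* and *ACTA2* cells the 1177 and 815 of the yak ran from 449 to 2284 and 298 to 1711, and the 460 and 538 of the cattle-yak from 107 to 1227 and 159 to 2229. The 5 cattle-yak clusters became 3 and 10 at resolutions of 0.25 and 1. Only *PECAM1* turned its direction among single genes: its ratio to the pericyte gate was 3.74 and 3.03 with endothelial-poor pericytes, and its ratio to *PDGFRA* and *ACTA2* cells in the cattle-yak was -2.01 with the rate, -1.0 with the study's limits and -3.17 in marker-free members. Depth limits genes near 3 counts, such as *CASQ2*, and the single library per group limits every comparison between them.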

Other observations

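Of the hormone receptor list *GHR*, the growth hormone receptor, was at least 2-fold higher in members than in all other cells in both libraries (log2 ratios 1.34 and 1.08). Its level in members was low, at 11.9 and 10.9 CPM, and 3.97% and 4.69% of all genes were that much higher. *PPARGC1A*, a coactivator of mitochondrial genes, had 4.84 and 7.04 CPM in members against 1.14 and 2.58 CPM in all other cells. Of 13 integrin genes 3 in the yak and 4 in the cattle-yak were at least 2-fold higher than in all other cells, where 3.97% and 4.69% of all genes were, with *ITGA3* and *ITGA7*, both laminin receptors, so in both.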
